A study of Mus musculus with 16 samples.

Results

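The genes described here are 7 genes of major histocompatibility complex (MHC) class II antigen presentation: Cd74, H2-Aa, H2-Ab1, H2-Eb1, H2-DMa, H2-DMb1 and Ciita. They were taken by gene symbol from a table of 24091 genes, and each of the 7 symbols had 1 row. The study measured RNA and histone modifications in caecal epithelium taken from C57BL/6 mice, and the question behind the RNA libraries is how gene expression differs with an antibiotic and with a source of butyrate. The 9 RNA libraries form 3 groups of 3. All mice drank Splenda, a sweetener, at 10 g/L, which is the vehicle. The first group also drank ampicillin at 1 g/L for 7 days and was given tributyrin, a triglyceride of butyrate, by gavage 6 h before harvest (ampicillin with tributyrin). The next group drank the same ampicillin and was given a mock gavage of 25% glycerol (ampicillin with mock gavage). The last group drank the vehicle without ampicillin and was given the same mock gavage (vehicle). The labels used here give no dose of tributyrin and no age, and no library analysed combines vehicle with tributyrin, so the effect of tributyrin was measured only in mice on ampicillin.

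An MHC class II molecule is a pair of chains, alpha and beta, that carries a peptide to the surface of a cell, where CD4 T cells read it. H2-Aa and H2-Ab1 encode the chains of I-A, and H2-Eb1 encodes the beta chain of I-E. Cd74 encodes the invariant chain, which fills the groove of new class II molecules and steers them to endosomes. H2-DMa and H2-DMb1 encode chains of H2-DM, which helps exchange the invariant chain fragment left in the groove for a peptide, and Ciita encodes the co-activator on which class II transcription depends. B cells, dendritic cells and macrophages carry class II constitutively, whereas intestinal epithelial cells are known to express it at a level set by interferon gamma and by the microbiota. C57BL/6 mice carry a non-functional H2-Ea gene and therefore lack surface I-E, and H2-Ea-ps was listed at 0 in all 9 libraries.

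The promoters of class II genes are known for a shared module of sequence boxes, bound by the RFX complex and by NF-Y, from which CIITA is recruited. Promoter windows from 250 bases before to 50 bases after the gene start were taken from RefSeq (GRCm38.p6), where 4 of the 7 genes had a window. The letters GNAAC followed on the same strand by GATTGG, with 20 to 30 bases between them, were searched on both strands. The windows of H2-Aa, H2-Eb1 and H2-DMb1 held this pair, and are shown because these 3 genes share it and yet differed in direction on ampicillin, as described further on. The matched letters are in capitals.

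H2-Aa, chr17:34287774-34288073, minus strand: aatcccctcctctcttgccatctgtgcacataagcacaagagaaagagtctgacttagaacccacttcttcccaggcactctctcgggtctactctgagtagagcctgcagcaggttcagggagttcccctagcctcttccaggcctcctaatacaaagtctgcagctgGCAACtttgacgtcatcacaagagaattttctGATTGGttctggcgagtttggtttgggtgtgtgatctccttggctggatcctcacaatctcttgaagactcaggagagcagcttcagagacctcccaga
H2-Eb1, chr17:34305617-34305916, plus strand: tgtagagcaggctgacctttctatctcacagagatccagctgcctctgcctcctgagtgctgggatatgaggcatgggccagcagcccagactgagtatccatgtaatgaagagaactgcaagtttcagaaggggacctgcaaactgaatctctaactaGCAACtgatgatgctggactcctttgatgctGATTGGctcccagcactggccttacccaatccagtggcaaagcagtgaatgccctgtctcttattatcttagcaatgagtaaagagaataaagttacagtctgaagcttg
H2-DMb1, chr17:34152941-34153240, plus strand: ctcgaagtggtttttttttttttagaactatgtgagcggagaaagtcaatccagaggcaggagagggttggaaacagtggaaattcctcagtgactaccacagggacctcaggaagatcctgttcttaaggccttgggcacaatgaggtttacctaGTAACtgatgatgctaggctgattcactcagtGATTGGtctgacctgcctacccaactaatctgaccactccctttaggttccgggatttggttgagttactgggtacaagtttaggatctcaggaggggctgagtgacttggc

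In H2-Aa the letters GNAAC lay 81 bases and GATTGG 49 bases before the start, with 27 bases between them. In H2-Eb1 they lay 91 and 60 bases before the start, and in H2-DMb1 94 and 62 bases before it. Neither of the 2 windows of H2-DMa held the pair. Among the other class II chains with a window, H2-Oa, H2-Ob and H2-Eb2 held it and H2-DMb2 did not. Of all 32851 windows, 0.651% held the pair, 84.8% held GNAAC alone or with the other motif, and 16.1% held GATTGG. The letters were chosen with the windows already read, so a match is a description of the sequence and not of binding.

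All 7 genes were of low or moderate abundance. In TPM, a relative abundance corrected for transcript length and scaled to a fixed total per library, the 7 genes together summed to 49.2 to 54.9 TPM in ampicillin with tributyrin, 28.8 to 43.0 TPM in ampicillin with mock gavage and 21.3 to 34.9 TPM in vehicle. For comparison of levels, H2-K1, a class I heavy chain that nearly all cells carry, stood at 11.7 ± 0.954, 17.2 ± 3.16 and 27.3 ± 6.17 times that sum in the same order of groups (SD, n = 3 each). The members with the highest levels, Cd74 and H2-Ab1, averaged above 45.4% and 37.9% of the 12155 genes tested, and H2-DMa above 15.2%. The deposited TPM values keep no sequencing depth, so no counting error can be attached to any of them, and the spread between the 3 libraries is the only measured error. Genes with a mean of at least 1 TPM over the 9 libraries were tested with limma on log2(TPM + 1), where adding 1 shrinks the differences of low genes, and calls were made where the p adjusted by the Benjamini-Hochberg method was under 0.05. H2-DMb1 and Ciita averaged under 1 TPM and were not tested in that fit. The labels do not say that replicates came from separate animals, so the p-values measure the spread between these libraries, which may be technical.

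**Figure D1:**
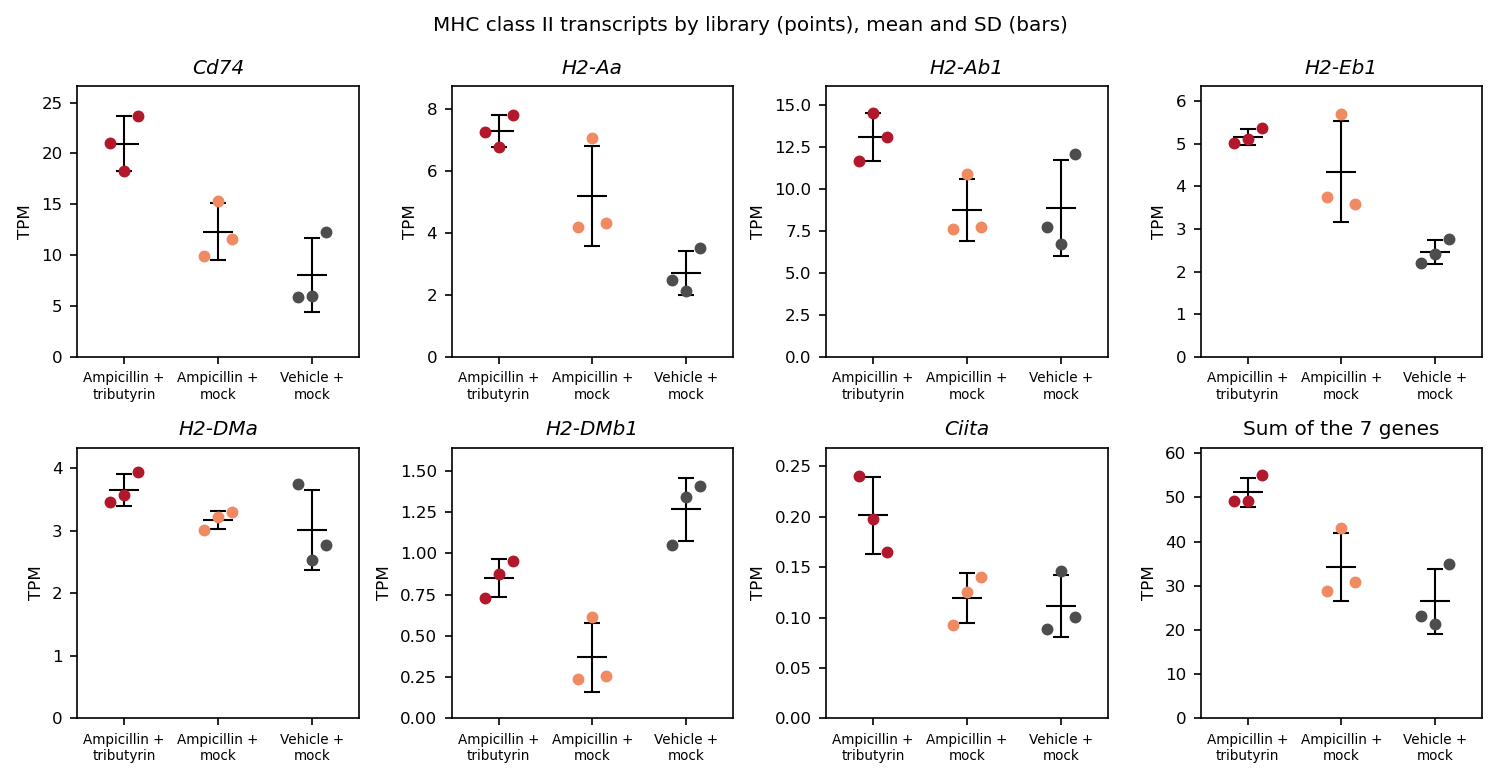
TPM of the 7 class II genes and of their sum in each library (points), with the mean and SD of the 3 libraries of a group; the groups are ampicillin with tributyrin, ampicillin with mock gavage and vehicle, and each panel has its own linear axis. The summed level of 49.2 to 54.9 TPM in ampicillin with tributyrin lies above every library of the other groups, while H2-DMb1 is lowest in ampicillin with mock gavage.

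On ampicillin, the transcripts of H2-Aa and H2-Eb1 were higher than on vehicle, and those of H2-Ab1 and H2-DMa were not shown to differ. H2-Aa, the I-A alpha chain (gene ID 14960, chromosome 17, 34282744 to 34287823), had 4.18, 7.05 and 4.31 TPM in the ampicillin libraries with mock gavage, against 2.46, 2.14 and 3.52 TPM in the vehicle libraries. H2-Eb1, the I-E beta chain (gene ID 14969, chromosome 17, 34305867 to 34316674), had 3.75, 5.71 and 3.58 TPM on ampicillin with mock gavage, against 2.20, 2.40 and 2.77 TPM on vehicle. For both genes every ampicillin library lay above every vehicle library, as did 22.6% of all genes tested, and replicate 2 of the ampicillin group was the highest of the 6. The log2 difference was 0.72 ± 0.19 (SE) for H2-Aa, with an adjusted p of 0.0266 in limma, and 0.61 ± 0.14 for H2-Eb1, with an adjusted p of 0.0166. These 2 genes, both higher, were the members called of the 5 tested, beside 21.3% of all genes tested that were called in either direction and 11.0% called higher. The H2-Aa call rested on the whole fit: the adjusted p was 0.0594 without replicate 2 of the ampicillin group, 0.0776 without replicate 1 and 0.0795 without replicate 2 of the vehicle group, 0.0503 with no filter on low genes and 0.0656 with only these 2 groups fitted. The H2-Eb1 call was lost without replicate 1 of the vehicle group, where its adjusted p was 0.0558.

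Cd74, the invariant chain (gene ID 16149, chromosome 18, 60803849 to 60812652), had 9.96, 15.4 and 11.6 TPM on ampicillin with mock gavage, against 5.86, 6.02 and 12.3 TPM on vehicle. Its groups overlapped because replicate 3 of the vehicle group was as high as the ampicillin libraries. The log2 difference of 0.61 ± 0.26 did not pass (adjusted p = 0.133 in limma), and without that vehicle library it was 0.92, with an adjusted p of 0.0111. H2-Ab1, the I-A beta chain (gene ID 14961, chromosome 17, 34263227 to 34269418), had 7.61, 10.9 and 7.74 TPM on ampicillin with mock gavage, against 7.73, 6.73 and 12.1 TPM on vehicle. Each of these groups held 1 library well above the others, and the groups overlapped. Its log2 difference was 0.01 ± 0.20, with a 95% interval of -0.45 to 0.47 and an adjusted p of 0.991, and its sign changed with the scaling used. The ratio of H2-Aa to H2-Ab1, the partner chains of I-A, lay between 0.549 and 0.648 in the ampicillin libraries with mock gavage. In the vehicle libraries that ratio lay between 0.291 and 0.319, without overlap. The ratio of Cd74 to H2-Ab1 likewise did not overlap, at 1.41 ± 0.0974 on ampicillin with mock gavage and 0.889 ± 0.129 on vehicle (SD, n = 3 each). Neither ratio was tested, and the share of all gene pairs whose ratios do not overlap was not computed.

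Tributyrin on top of ampicillin was followed by higher mean levels of all 7 genes, of which none of the 5 tested passed the threshold, while 23.2% of all genes tested were called, 15.6% higher and 7.54% lower. Of the 5, 3 had an unadjusted p under 0.05 in limma, as did 4587 of all 12155 genes tested. Cd74 had 21.0, 18.2 and 23.7 TPM with tributyrin, against 9.96, 15.4 and 11.6 TPM with mock gavage. H2-Ab1 had 11.6, 14.5 and 13.1 TPM with tributyrin, against 7.61, 10.9 and 7.74 TPM with mock gavage. For these 2 genes all 3 tributyrin libraries lay above all 3 mock libraries, as did 27.3% of all genes tested. The log2 difference was 0.73 ± 0.26 for Cd74 (95% interval 0.15 to 1.32, adjusted p = 0.0704 in limma) and 0.54 ± 0.20 for H2-Ab1 (adjusted p = 0.0858). Cd74 passed with only these 2 groups fitted (adjusted p = 0.0286), with short RNA entries left out of the TPM total (0.0427) and without replicate 3 of the vehicle group (0.0154), a library that enters this comparison only through the shared estimate of the spread.

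H2-Aa had 7.25, 6.77 and 7.79 TPM with tributyrin, against 4.18, 7.05 and 4.31 TPM with mock gavage. H2-Eb1 had 5.01, 5.11 and 5.36 TPM with tributyrin, against 3.75, 5.71 and 3.58 TPM with mock gavage. Replicate 2 of the mock group lay within the tributyrin libraries for H2-Aa and above them for H2-Eb1, and the other mock libraries lay below all of them. The log2 difference was 0.45 ± 0.19 for H2-Aa (adjusted p = 0.118 in limma) and 0.23 ± 0.14 for H2-Eb1 (adjusted p = 0.280). Without that mock library the adjusted p was 0.0300 for H2-Aa and 0.0315 for H2-Eb1. The H2-Ab1 difference passed when replicate 3 of the vehicle group was left out (adjusted p = 0.0328).

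Between ampicillin with tributyrin and vehicle, Cd74, H2-Aa and H2-Eb1 rose. The log2 difference was 1.34 ± 0.26 for Cd74 (adjusted p = 0.00654 in limma), 1.17 ± 0.19 for H2-Aa (adjusted p = 0.00317) and 0.83 ± 0.14 for H2-Eb1 (adjusted p = 0.00395). The means were 21.0 ± 2.73 TPM with ampicillin and tributyrin and 8.05 ± 3.66 TPM on vehicle for Cd74, and 7.27 ± 0.513 against 2.71 ± 0.721 TPM for H2-Aa (SD, n = 3 each). H2-Eb1 averaged 5.16 ± 0.180 TPM with ampicillin and tributyrin and 2.46 ± 0.290 TPM on vehicle. These 3 of the 5 members tested were called, all higher, where 28.3% of all genes tested were called, 19.1% higher and 9.21% lower. For Cd74, H2-Aa, H2-Eb1 and Ciita every library with ampicillin and tributyrin lay above every vehicle library, as did 28.5% of all genes tested. The 3 calls held under every alternative tried for each gene, 19 for Cd74 and for H2-Aa and 18 for H2-Eb1. H2-Ab1 differed by 0.55 ± 0.20 (adjusted p = 0.0752) and passed only without replicate 3 of the vehicle group (0.77, adjusted p = 0.0155). This comparison shares its libraries with the other 2 and changes ampicillin and tributyrin at once, so neither agent can be assigned its difference.

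**Figure D2:**
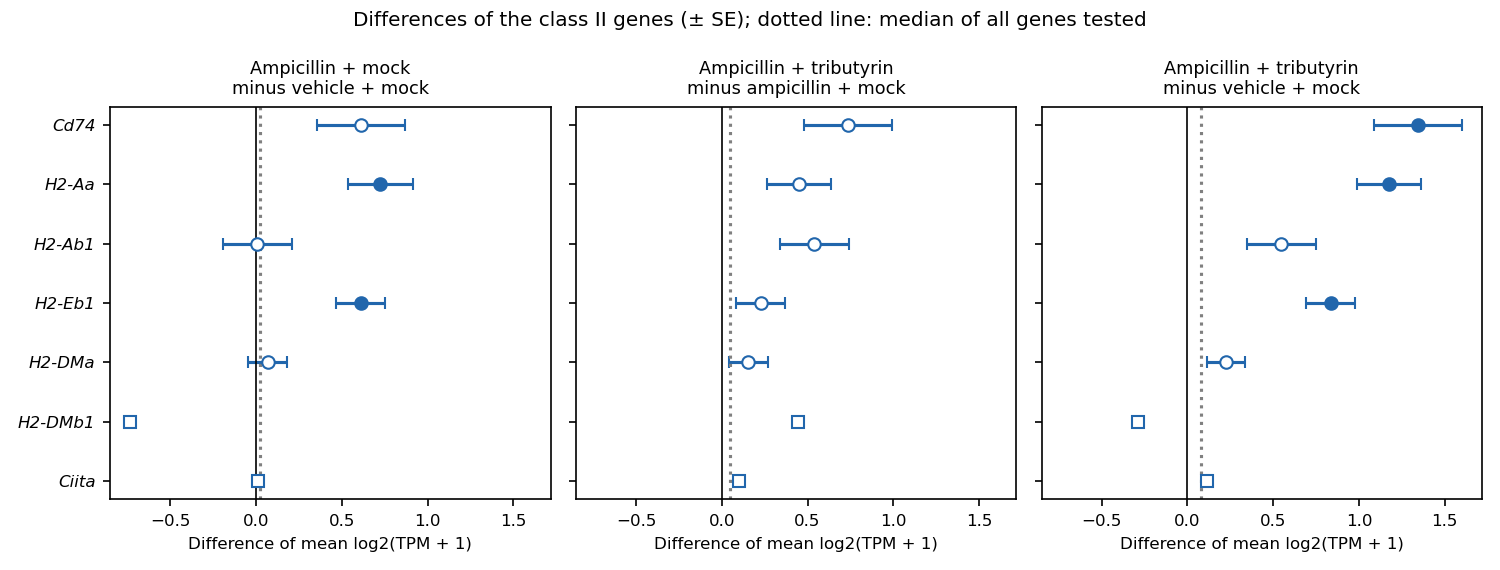
Difference in log2(TPM + 1) of the 7 genes in the 3 comparisons, with SE bars for the 5 genes tested (circles, filled where the adjusted p is under 0.05) and no error for H2-DMb1 and Ciita, which averaged under 1 TPM (squares); the dotted line is the median of all genes tested. The filled points are H2-Aa and H2-Eb1 for ampicillin against vehicle, none for tributyrin against mock gavage, and Cd74, H2-Aa and H2-Eb1 for ampicillin with tributyrin against vehicle.

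The median log2 difference of the 5 members tested was 0.61 for ampicillin against vehicle, 0.45 for tributyrin against mock gavage and 0.83 for ampicillin with tributyrin against vehicle. Over all genes tested the medians were 0.02, 0.05 and 0.08. The first 2 comparisons share the ampicillin libraries with mock gavage, and replicate 2 of that group had the highest Cd74, H2-Aa, H2-Ab1 and H2-Eb1 of its 3 libraries.

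H2-DMa, a chain of the peptide exchange factor H2-DM (gene ID 14998, chromosome 17, 34119693 to 34139101), was nearly level, with 3.46, 3.56 and 3.93 TPM in ampicillin with tributyrin, 3.01, 3.21 and 3.30 TPM in ampicillin with mock gavage and 3.74, 2.53 and 2.77 TPM in vehicle. Its tributyrin libraries lay above the mock libraries, as did those of 27.3% of all genes tested. The vehicle libraries, at 2.53 to 3.74 TPM, overlapped both ampicillin groups. No comparison passed in limma: the log2 difference was 0.07 ± 0.11 for ampicillin against vehicle (95% interval -0.19 to 0.32, adjusted p = 0.726), 0.16 ± 0.11 for tributyrin against mock gavage (adjusted p = 0.349) and 0.22 ± 0.11 for ampicillin with tributyrin against vehicle (adjusted p = 0.168). The last of these passed when replicate 1 of the vehicle group was left out (0.35, adjusted p = 0.0278).

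H2-DMb1 (gene ID 14999, chromosome 17, 34153191 to 34160229) was the only member that was lower on ampicillin with mock gavage in all libraries. It had 0.236, 0.612 and 0.260 TPM on ampicillin with mock gavage, against 1.05, 1.34 and 1.41 TPM on vehicle. With tributyrin it had 0.727, 0.876 and 0.952 TPM, between the other groups and overlapping neither. Of all genes tested, 18.2% were lower with no overlap for ampicillin against vehicle and 13.2% for ampicillin with tributyrin against vehicle. For tributyrin against mock gavage, where H2-DMb1 was higher, 27.3% of all genes tested were higher with no overlap and 15.3% were lower. The exact two-sided permutation test of 3 libraries against 3 gave 0.1 in each comparison, the smallest p it allows. Fitted with no filter on low genes, limma gave an adjusted p of 0.00501 for ampicillin against vehicle, 0.0361 for tributyrin against mock gavage and 0.119 for ampicillin with tributyrin against vehicle. The ratio of H2-DMa to H2-DMb1, the partner chains of H2-DM, was 4.07 to 4.76 with tributyrin, 5.25 to 12.7 on ampicillin with mock gavage and 1.89 to 3.56 on vehicle, with no overlap between groups. It was not tested, and the share of all gene pairs that separate in this way was not computed.

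H2-DMb1 has a close paralogue beside it, H2-DMb2, and reads could be split between the 2 genes in the estimate. H2-DMb2 had 0.303, 0.724 and 1.09 TPM with tributyrin, 0.395, 0.372 and 0.334 TPM on ampicillin with mock gavage and 0.398, 0.168 and 0.155 TPM on vehicle. Its mean was higher with tributyrin than on vehicle, the reverse of H2-DMb1, and those libraries overlapped. The sum of both genes, an alternative chosen after the values were seen, was 1.56 ± 0.506 TPM with tributyrin, 0.737 ± 0.215 TPM on ampicillin with mock gavage and 1.51 ± 0.0558 TPM on vehicle (SD, n = 3 each). For that sum limma gave a log2 difference of -0.54 ± 0.16 for ampicillin against vehicle (adjusted p = 0.0428), 0.55 ± 0.16 for tributyrin against mock gavage (adjusted p = 0.0387) and 0.01 for ampicillin with tributyrin against vehicle (adjusted p = 0.973). The lower level on ampicillin with mock gavage was therefore seen in the sum too, while the difference between tributyrin and vehicle was not. The ratio of H2-DMa to that sum was 1.93 to 3.36 with tributyrin, 3.27 to 5.55 on ampicillin with mock gavage and 1.68 to 2.58 on vehicle, so with both genes counted the tributyrin libraries overlapped each of the other groups.

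Ciita, the master co-activator (gene ID 12265, chromosome 16, 10480014 to 10531064), was the least abundant of the 7 in every library. It had 0.241, 0.198 and 0.165 TPM with tributyrin, 0.0925, 0.125 and 0.141 TPM on ampicillin with mock gavage and 0.0885, 0.147 and 0.1004 TPM on vehicle. Its 3 tributyrin libraries lay above the other 6, while ampicillin with mock gavage and vehicle overlapped. Of all genes tested, 27.3% were higher with no overlap for tributyrin against mock gavage and 28.5% for ampicillin with tributyrin against vehicle. The exact two-sided permutation test gave 0.1, the smallest p it allows, for tributyrin against mock gavage and for ampicillin with tributyrin against vehicle, and 0.9 for ampicillin against vehicle. In the limma fit with no filter the adjusted p was 0.0651, 0.0424 and 0.901 in those comparisons. Ciita is transcribed from several promoters used by different cell types, and a value per gene cannot tell them apart.

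The order of levels within a group also differed. With tributyrin the mean TPM fell in the order Cd74, H2-Ab1, H2-Aa, H2-Eb1, H2-DMa, H2-DMb1 and Ciita, and no 2 neighbours had overlapping libraries. The order was the same on ampicillin with mock gavage, where Cd74 overlapped H2-Ab1 and H2-Aa overlapped H2-Eb1. On vehicle it was H2-Ab1, Cd74, H2-DMa, H2-Aa, H2-Eb1, H2-DMb1 and Ciita, with overlap between H2-Ab1 and Cd74, between H2-DMa and H2-Aa and between H2-Aa and H2-Eb1. Cd74 made up 40.9% ± 3.36 of the summed TPM with tributyrin, 36.0% ± 1.53 on ampicillin with mock gavage and 29.6% ± 5.04 on vehicle (SD, n = 3 each). H2-Ab1 made up 25.6% ± 3.32 with tributyrin, 25.6% ± 0.729 on ampicillin with mock gavage and 33.2% ± 1.51 on vehicle.

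Across the 9 libraries, which include the group differences, log2(TPM + 1) of H2-Aa had a Pearson r of 0.978 with H2-Eb1, 0.958 with Cd74 and 0.773 with H2-Ab1. Cd74 and H2-Ab1 had an r of 0.852. The lowest r of a pair without H2-DMa was 0.6825, between H2-Ab1 and H2-Eb1. H2-DMa had r between 0.444 and 0.566 to the others. The remaining class II chains were too low to test: H2-Oa, H2-Ob, H2-Eb2 and H2-DMb2 averaged under 1 TPM. H2-Ob, a chain of the H2-DM inhibitor H2-O, had 0.154, 0.212 and 0.183 TPM with tributyrin, against 0.118, 0.0748 and 0.0465 TPM on ampicillin with mock gavage. H2-Eb2 had 0.140, 0.212 and 0.247 TPM with tributyrin, against 0.0417, 0.0695 and 0.0925 TPM on ampicillin with mock gavage. In both, every tributyrin library lay above every mock library, as did 27.3% of all genes tested. H2-Oa, the partner chain of H2-Ob, overlapped, with 0.136, 0.178 and 0.366 TPM with tributyrin, against 0.367, 0.181 and 0.106 TPM on ampicillin with mock gavage.

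Of 10 genes for factors that act at class II promoters, none was called for ampicillin against vehicle. An unadjusted p under 0.05 in limma was found for 1 of them and for 4136 of all 12155 genes tested. The RFX subunits Rfx5, Rfxap and Rfxank were called in none of the 3 comparisons. Rfx5 averaged 5.19 ± 0.397, 5.12 ± 0.0673 and 5.13 ± 0.376 TPM in ampicillin with tributyrin, ampicillin with mock gavage and vehicle (SD, n = 3 each). With tributyrin against mock gavage, 2 of the 10 rose and 1 fell, where 15.6% of all genes tested were called higher and 7.54% lower. Nfya, the DNA-binding subunit of NF-Y, averaged 15.7 ± 2.47 TPM with tributyrin and 10.2 ± 0.137 TPM with mock gavage, a log2 difference of 0.56 ± 0.10 (adjusted p = 0.00519). Creb1, whose product binds the box between those of RFX and NF-Y, averaged 7.72 ± 0.576 TPM with tributyrin and 5.30 ± 0.458 TPM with mock gavage, a difference of 0.47 ± 0.08 (adjusted p = 0.00576). Kat2b, an acetyltransferase, fell by 0.21 ± 0.06 (adjusted p = 0.0339), a call lost without replicate 3 of the vehicle group, any library of the mock group, or replicate 2 or 3 of the tributyrin group (0.0537 to 0.115).

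Interferon gamma, the main inducer of CIITA, was itself near 1 TPM: Ifng averaged 1.06 ± 0.526 TPM with tributyrin, 0.770 ± 0.458 TPM on ampicillin with mock gavage and 0.506 ± 0.223 TPM on vehicle, and was not tested. Of 11 tested genes of its signalling list, 1 was higher and 2 were lower on ampicillin with mock gavage than on vehicle. Over all genes tested, 11.0% were called higher and 10.2% lower. Irf1, a transcription factor of the interferon response, averaged 51.2 ± 5.81 TPM on ampicillin with mock gavage and 82.4 ± 13.3 TPM on vehicle, a log2 difference of -0.67 ± 0.16 (adjusted p = 0.0167 in limma, and 0.0599 without replicate 1 of the ampicillin group). Irf8 averaged 54.9 ± 3.73 TPM on ampicillin with mock gavage and 72.4 ± 2.74 TPM on vehicle (-0.39 ± 0.06, adjusted p = 0.00328). Socs3, a feedback inhibitor of cytokine signalling, was higher, at 6.33 ± 1.12 TPM on ampicillin with mock gavage and 3.26 ± 0.459 TPM on vehicle (0.78 ± 0.12, adjusted p = 0.00238). The receptor gene Ifngr1 was called in none of the comparisons. With tributyrin against mock gavage, Irf8 was called higher and Ifngr2 lower. Irf8 differed by 0.24 ± 0.06 (adjusted p = 0.0304), lost without replicate 1 or 3 of the mock group or replicate 2 or 3 of the tributyrin group (0.0515 to 0.105). Ifngr2 differed by -0.28 ± 0.07 (adjusted p = 0.0177), lost without replicate 2 of the mock group (0.0674) or replicate 1 of the tributyrin group (0.0578).

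The endosomal enzymes that trim the invariant chain and prepare peptides changed in both directions on ampicillin. Of 9 tested, 2 rose and 2 fell on ampicillin with mock gavage against vehicle. Of all genes tested, 11.0% were called higher and 10.2% lower. Ctsh, cathepsin H, fell to 16.6 ± 1.38 TPM on ampicillin with mock gavage, against 41.6 ± 4.56 TPM on vehicle, a log2 difference of -1.27 ± 0.09 (adjusted p = 5.18e-05 in limma). Ctsb, cathepsin B, rose by 0.30 ± 0.04 (adjusted p = 0.00105) and Ifi30, the lysosomal thiol reductase GILT, by 0.23 ± 0.04 (adjusted p = 0.0057). Lgmn, the asparaginyl endopeptidase, differed by -0.29 ± 0.07 (adjusted p = 0.0210), a call lost without replicate 2 or 3 of the vehicle group or replicate 1 or 3 of the ampicillin group (0.0593 to 0.0760).

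With tributyrin against mock gavage, 5 of the 9 rose and none fell, where 15.6% of all genes tested were called higher and 7.54% lower. Ctsl, cathepsin L, averaged 35.8 ± 2.25 TPM with tributyrin and 23.4 ± 1.49 TPM with mock gavage, a log2 difference of 0.60 ± 0.07 (adjusted p = 0.00115 in limma). Ctsh rose by 0.42 ± 0.09 (adjusted p = 0.0122), Lgmn by 0.34 ± 0.07 (0.0102) and Ifi30 by 0.27 ± 0.04 (0.00366). Ctse, cathepsin E, was the fifth, at 0.41 ± 0.10 (0.0253), lost without replicate 1 or 3 of the mock group or replicate 1 or 2 of the tributyrin group (0.0661 to 0.0824). Ctss, cathepsin S, the main invariant chain protease of antigen-presenting cells, averaged 211 ± 23.6 TPM with tributyrin, 252 ± 27.3 TPM on ampicillin with mock gavage and 229.6 ± 26.0 TPM on vehicle (SD, n = 3 each). It was called in none of the comparisons.

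Genes of class I presentation, which loads peptides made by the proteasome, differed from the class II genes on ampicillin. Of 9 tested, 8 fell on ampicillin with mock gavage against vehicle and none rose, with a median log2 difference of -0.51, where 10.2% of all genes tested were called lower. The 8 include Tapbp (-0.19 ± 0.05, adjusted p = 0.0364 in limma), whose call held in 10 of 19 alternatives, with an adjusted p of up to 0.122. It was lost without replicate 1 or 3 of the vehicle group, replicate 1 or 3 of the ampicillin group with mock gavage, or replicate 1 or 2 of the tributyrin group. Psmb8, an inducible proteasome subunit whose gene lies within the class II region of the MHC, averaged 7.18 ± 0.740 TPM on ampicillin with mock gavage and 21.4 ± 2.57 TPM on vehicle (-1.45 ± 0.09, adjusted p = 3.33e-05 in limma). B2m, the light chain of class I, averaged 525 ± 23.2 TPM on ampicillin with mock gavage and 747 ± 42.5 TPM on vehicle (-0.51 ± 0.07, adjusted p = 0.00125). With tributyrin against mock gavage 4 of the 9 rose, namely Psmb8, Psmb9, Tap1 and Tap2, and none fell. In that comparison 15.6% of all genes tested were called higher. The Tap2 call was lost without replicate 1 or 3 of the mock group or replicate 1 or 3 of the tributyrin group (adjusted p = 0.0560 to 0.0736). Psmb8 averaged 16.2 ± 0.374 TPM with tributyrin and 7.18 ± 0.740 TPM with mock gavage (1.07 ± 0.09, adjusted p = 0.000425). Both comparisons share the ampicillin libraries with mock gavage, so their opposite signs are not independent.

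For ampicillin with tributyrin against vehicle, 19.1% of all genes tested were called higher and 9.21% lower. Of the 9 endosomal enzymes tested, 4 rose and 2 fell, and 3 of the 10 promoter factors rose. Of the 11 interferon gamma genes 1 rose and 2 fell, and 5 of the 9 class I genes fell. Of these calls, that of Sppl2a, a protease that cuts the invariant chain stub and 1 of the 2 enzymes that fell, held in 9 of 19 alternatives, and those of Nfya and Nfyb in 9 and 13 of 19. Ifi30 rose by 0.50 ± 0.04 (adjusted p = 0.000202 in limma) and Ctsh fell by 0.85 ± 0.09 (adjusted p = 0.00052). The class II members tested in that comparison were 3 higher and none lower of 5.

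**Figure D3:**
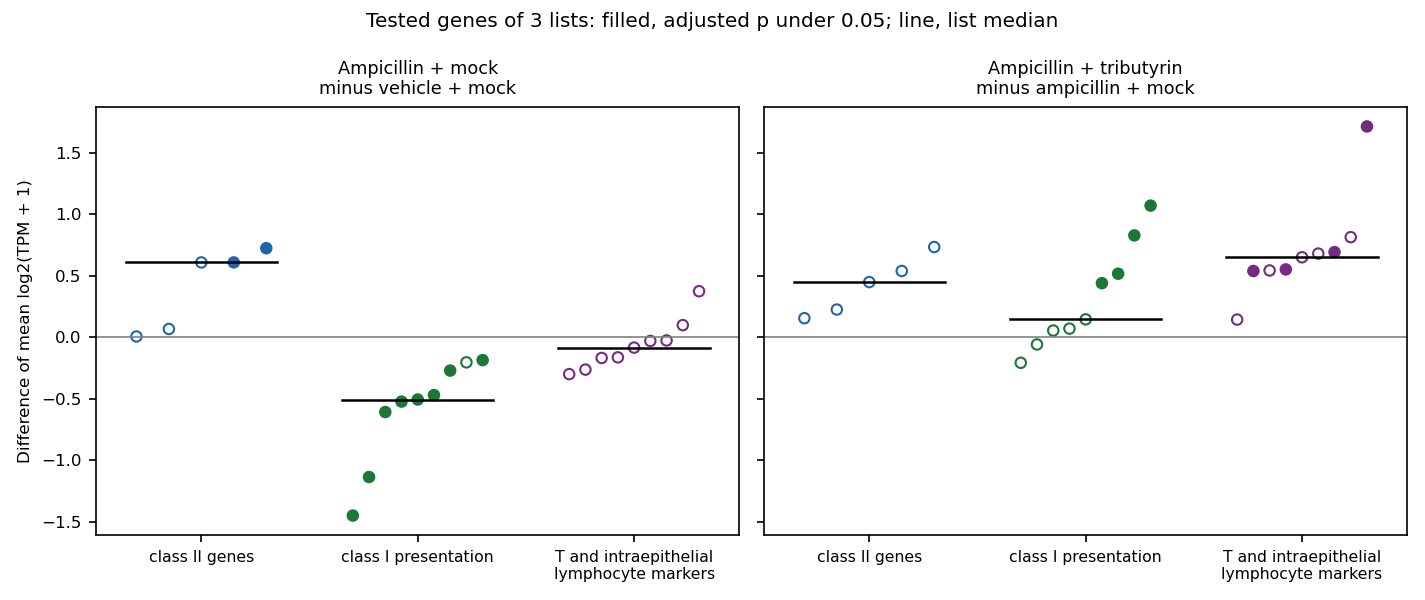
Difference in log2(TPM + 1) of each tested gene of the class II members, the class I list and the T and intraepithelial lymphocyte markers, for ampicillin against vehicle and for tributyrin against mock gavage; filled points have an adjusted p under 0.05 and the line is the median of each list. For ampicillin against vehicle the class II median is 0.61 and the class I median -0.51.

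The genes through which a presenting cell co-stimulates or inhibits a T cell were mostly near 0. The table holds 8 genes of this mixed list, of which 3 were tested: Icosl, Cd274 and Tnfrsf14. None was called for ampicillin against vehicle. In limma 2 had an unadjusted p under 0.05, as did 4136 of all 12155 genes tested. Cd80 averaged 0.105 ± 0.0483 TPM with tributyrin, 0.0624 ± 0.0340 TPM on ampicillin with mock gavage and 0.0654 ± 0.0468 TPM on vehicle. Cd86 was lower still. Icosl, the ligand of ICOS, averaged 2.87 ± 0.388 TPM with tributyrin and 1.62 ± 0.0910 TPM with mock gavage, a log2 difference of 0.56 ± 0.12 (adjusted p = 0.0111).

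The libraries were epithelial, as labelled: 12 epithelial markers summed to 15285 to 19844 TPM, and Epcam averaged 1217 TPM in ampicillin with tributyrin, 1177 TPM in ampicillin with mock gavage and 1391 TPM in vehicle. No sort that removes leukocytes is described, and 9 pan-leukocyte markers summed to 24.0 to 72.7 TPM over the libraries, beside 21.3 to 54.9 TPM for the 7 class II genes. In such bulk samples, fewer cells of a type and less RNA per cell cannot be told apart. Ptprc, which encodes the leukocyte antigen CD45, averaged 6.91 ± 2.49 TPM with tributyrin, 3.79 ± 0.942 TPM on ampicillin with mock gavage and 3.90 ± 0.736 TPM on vehicle. Its difference for tributyrin against mock gavage did not pass (0.69 ± 0.23, adjusted p = 0.0635 in limma).

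For ampicillin against vehicle, where H2-Aa and H2-Eb1 rose, none of the 8 tested pan-leukocyte markers was called in limma. None of the 9 tested T and intraepithelial lymphocyte markers was called either. No marker of these 2 lists had an unadjusted p under 0.05 in limma, where 4136 of all 12155 genes tested did. The summed T cell markers lay at 25.1 to 43.0 TPM on ampicillin with mock gavage and 33.6 to 39.0 TPM on vehicle. The 8 B cell markers, none of which was high enough to test, summed to 1.00 to 1.15 TPM on ampicillin with mock gavage and 0.480 to 0.773 TPM on vehicle, with no overlap. Of 17 macrophage and dendritic cell markers 5 were tested and 1, C1qa, was called, lower on ampicillin. C1qa had 16.5 to 20.3 TPM on ampicillin with mock gavage and 42.3 to 54.9 TPM on vehicle, while its partner chains C1qb and C1qc were near 0 in every library. Without C1qa the macrophage and dendritic cell markers summed to 10.2 to 14.8 TPM on ampicillin with mock gavage and 10.1 to 11.7 TPM on vehicle. Their defining markers were too low to test. Itgax had 0.249 to 0.461 TPM on ampicillin with mock gavage and 0.183 to 0.240 TPM on vehicle. Flt3 had 0.0744 to 0.149 TPM and 0.0212 to 0.0381 TPM in these groups. Both were higher on ampicillin with no overlap, as were 22.6% of all genes tested, while Csf1r overlapped. Other markers moved with ampicillin as well: 7 of 12 epithelial and 4 of 9 tested crypt stem cell markers were called lower and none higher. Over all genes tested, 10.2% were called lower. The 8 fibroblast and endothelial markers summed to 0.803 to 1.09 TPM on ampicillin with mock gavage and 3.83 to 4.32 TPM on vehicle. That sum was mostly Pecam1, an endothelial and leukocyte adhesion molecule, with 0.511 to 0.636 TPM on ampicillin with mock gavage and 3.53 to 4.03 TPM on vehicle. Plasma cell markers summed to at most 1.40 TPM in any library, and the only tested marker of group 3 innate lymphoid cells was not called. The part of these cells in the class II differences was not tested.

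For tributyrin against mock gavage, the summed T cell markers were higher, as were the mean levels of the class II genes, of which none tested was called. The T cell markers summed to 47.0 to 84.6 TPM with tributyrin and 25.1 to 43.0 TPM with mock gavage. Of the 9 tested, 4 were called, all higher, with a median log2 difference of 0.65. Over all genes tested, 15.6% were called higher. Gzma, a granzyme of cytotoxic lymphocytes, averaged 3.82 ± 0.980 TPM with tributyrin and 0.468 ± 0.274 TPM with mock gavage (1.72 ± 0.25, adjusted p = 0.00261). The pan-leukocyte markers summed to 42.2 to 72.7 TPM with tributyrin and 24.0 to 43.8 TPM with mock gavage, and 1 of 8 tested was called higher. The B cell markers summed to 0.908 to 3.31 TPM with tributyrin and 1.00 to 1.15 TPM with mock gavage, overlapping, and the macrophage and dendritic cell markers without C1qa to 13.1 to 19.6 and 10.2 to 14.8 TPM. The part of leukocytes in the class II levels was not tested.

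Within the tributyrin group the class II sums ranked as the B cell sums did, but replicates 1 and 2 were nearly tied, at 49.28 and 49.24 TPM. The T cell, pan-leukocyte and macrophage and dendritic cell sums ranked otherwise. Replicate 3 had the highest class II sum, 54.9 TPM, and the highest B cell sum, 3.31 TPM, and the lowest T cell sum, 47.0 TPM. Replicate 2 had the highest T cell sum, 84.6 TPM, and the lowest B cell sum, 0.908 TPM. On ampicillin with mock gavage the class II and B cell sums did not rank alike. There replicate 2 had the highest class II sum, 43.0 TPM, and replicate 1 the highest B cell sum, 1.15 TPM. Defining markers of the professional presenting cells stayed under 1 TPM in all 9 libraries: Cd79a of B cells, Itgax and Flt3 of dendritic cells and Csf1r of macrophages. Other genes of the macrophage and dendritic cell list were above 1 TPM in every library: Cd68 had 1.26 to 2.51 TPM, Tyrobp 1.75 to 4.86 TPM and Fcer1g 3.45 to 8.16 TPM, beside C1qa. In vehicle replicate 3, where Cd74 and H2-Ab1 were highest of their group, the B cell sum was the lowest of the group, at 0.480 TPM. The macrophage and dendritic cell sum without C1qa was also the lowest of that group, at 10.1 TPM. The T cell and pan-leukocyte sums of that library were the highest, at 39.0 and 35.8 TPM.

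**Figure D4:**
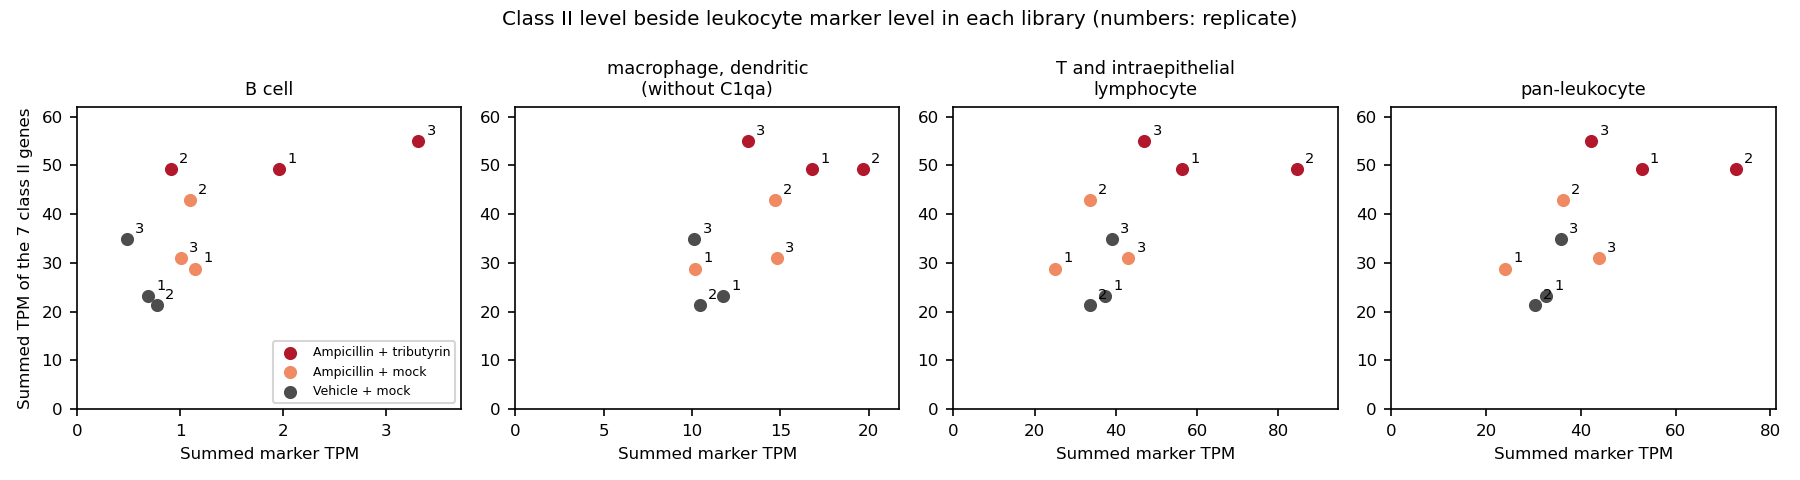
Summed TPM of the 7 class II genes against the summed TPM of B cell markers, macrophage and dendritic cell markers without C1qa, T and intraepithelial lymphocyte markers and pan-leukocyte markers in each of the 9 libraries, coloured by group and numbered by replicate. The tributyrin libraries have the highest class II sums, 49.2 to 54.9 TPM, and in T cell markers they reach 47.0 to 84.6 TPM, above the other 6.

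The genes whose pattern over the 9 libraries was most like that of the 5 tested members were ranked by Pearson r with the mean of the members' standardised log2(TPM + 1), among 11466 candidates. The highest were Rpl21 (r = 0.968), Unc45a (0.963), Marcksl1 (0.959), Aifm2 (0.959), Kin (0.956), Atg16l2 (0.955), Flt3l (0.954), Rps18 (0.951), Cldn8 (0.950) and Arsa (0.947). All 10 averaged highest with tributyrin and lowest on vehicle, and with the 2 libraries farthest from the median left out their r lay between 0.888 and 0.976. The 10 were picked for the highest r among 11466, so their high r and group order follow largely from that choice. How high the best r would be by chance was not computed. Flt3l, the ligand of the dendritic cell growth receptor FLT3, averaged 6.41 ± 0.567 TPM with tributyrin, 4.60 ± 0.545 TPM on ampicillin with mock gavage and 3.49 ± 0.473 TPM on vehicle (SD, n = 3 each). Cldn8, a tight junction claudin, averaged 16.4 ± 1.23, 10.9 ± 1.81 and 6.00 ± 0.434 TPM in the same groups. With each group's mean subtracted, other genes led the list: Tmem81 (0.986), Snx15 (0.982), Immp2l (0.979), Aldh7a1 (0.977) and Lrrc51 (0.971). These correlations describe 9 libraries that share 3 treatments and the closure of TPM to a fixed total.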

How the data were processed

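RNA was measured in 9 libraries, 3 per group, with groups and replicate numbers taken from the sample titles. The other 7 samples (chromatin immunoprecipitation and input) were not analysed here. The values used are TPM per gene and library, as the authors deposited them. The submitters' processing notes name mm10, DESeq2 1.20.0 and Salmon 0.8.2, without roles or order. The index, annotation, strand setting and gene-level summary were not given in the sources used here. Column sums of 999833 to 999866 show that depth is not kept, so a count model was not used. Since the total is fixed, an increase of abundant transcripts pulls down the TPM of the rest. Cells were released with DTT and EDTA and then Dispase, per the labels' protocols.

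Values were fitted as log2(TPM + 1) for genes with a mean of at least 1 TPM, 12155 in all, with limma 3.58.1 (R 4.3.3): 1 mean per group, all 9 libraries in 1 fit (6 residual degrees of freedom), moderated variances with a trend on expression, and Benjamini-Hochberg adjustment over all genes in each comparison. The fit was tested on simulated data. Genes under that mean were given by library, with an exact permutation test in scipy 1.17.1. Figures were drawn with matplotlib 3.10.9. The alternatives were no filter, a mean of at least 5 TPM, pseudocounts of 0.1 and 5, quantile normalization, TPM rescaled without 1199 short RNA entries, array weights, no variance trend, only the groups compared, a replicate block and each library left out in turn.

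The 7 genes, the 15 other gene lists and the tests were chosen with earlier results of these data known. Named were the 7 genes, up to 4 called genes per pathway list by size of change, any pathway gene with its values, defining cell type markers, and the genes most alike in pattern. C1qa, C1qb, C1qc, Cd68, Tyrobp, Fcer1g, Pecam1 and Gzma were named after their values were seen. Of the gene IDs, 24045 of 24091 matched RefSeq, from which coordinates and promoter windows (GRCm38.p6) were read. Some items are not reported here.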

Additional observations from a re-analysis of the deposited data

How the results depend on the processing

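Each comparison was refitted under 19 alternatives. The count of members called for ampicillin against vehicle, 2, was 1 with a mean of at least 5 TPM, which leaves H2-Eb1 and H2-DMa untested, and 1 with only the groups compared, and 0 to 3 with 1 library left out. For tributyrin against mock gavage the count, 0, was 1 with no filter, 1 with the TPM rescaled without short RNA and 1 with only the groups compared, and 0 to 2 with 1 library left out. For ampicillin with tributyrin against vehicle it was 3, 2 with a mean of at least 5 TPM, 4 with no filter, and 3 to 4 with 1 library left out. The log2 difference of H2-Ab1 for ampicillin against vehicle, 0.01, turned to -0.0070 under quantile normalization, -0.0037 after rescaling and -0.046 with array weights, and lay between -0.15 and 0.23 with 1 library left out. That of H2-DMa lay between -0.019 and 0.19 with 1 library left out. The cause was not tested. The called genes of the pathway lists numbered 15, 15 and 17 in the 3 comparisons and 12 to 17, 11 to 19 and 13 to 21 under the alternatives. Over all genes, the 2819 calls for tributyrin against mock gavage became 4271 with array weights, 1749 and 1659 without replicate 1 or 2 of the mock group and 1574 without replicate 2 of the tributyrin group. The 3444 calls for ampicillin with tributyrin against vehicle became 2061 without that tributyrin library.

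With the replicate number as a block the members called stayed 2, 0 and 3 in number, and the calls of Tapbp for ampicillin against vehicle (adjusted p = 0.0572 in limma) and of Kat2b for tributyrin against mock gavage (0.0571) were lost. Same-numbered libraries shared little deviation: 1 of 9 same-numbered pairs had deviations with r over 0.1, and r lay between -0.0498 and 0.108. Such low r cannot show that the samples were unpaired. The block raised the calls over all genes from 2587, 2819 and 3444 to 2707, 3009 and 3569. With 3 libraries per group and no depth in TPM, differences of H2-DMb1 and Ciita under 1 TPM are the least certain.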
